A study of Mus musculus with 12 samples.

Results

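Follicular B cells labelled ZFXcko and ZFXwt were compared in how far their gene expression had changed after 2 h of B cell receptor crosslinking. For every gene, the 2 h change in ZFXwt cells was subtracted from the 2 h change in ZFXcko cells, both on the scale log2(signal + 16), and the result is called the response difference. A positive response difference means that the change was more positive (or less negative) in ZFXcko cells. The 8 arrays that define it, of 12 in the series, were 2 each of ZFXcko at 2 h, ZFXcko at 0 h, ZFXwt at 2 h and ZFXwt at 0 h. The other 4 arrays, at 12 h, entered the shared estimate of the spread, the filter on low signals and the choice of each gene's brightest probe set. Of 12190 genes tested, 2491 (20.4%) were called at an adjusted p under 0.05 (limma, Benjamini-Hochberg). They include a larger rise of the nuclear receptor genes Nr4a3 and Nr4a2 and of the immediate early gene Ier2 in ZFXcko cells. For Nr4a3 most of this lay at 0 h, where ZFXcko cells were lower. More negative changes were called for Cd79a, Jun, Xbp1, Tnfaip3 and Ltb. They were also called for 8 of 12 heat shock genes (chaperones and the factor gene Hsf2), where 11.8% of all genes were called negative. Of the 2491 called genes, 38.1% differed between the genotypes mostly at 0 h.

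The cells were splenic, from male 129SvEv mice aged 8 weeks, and were sorted as B220+ AA4.1- CD23hi CD21int. They were cultured with anti-IgM at 10 µg/mL in both genotypes, so no array holds cells cultured for 2 h without it. Neither the allele, the recombinase and the cells in which it acts nor the number of mice is stated in the labels. From 100 ng of RNA, 2 rounds of amplification were run, and labelled RNA was put on whole-genome mouse arrays in duplicate. Nothing says that the 2 arrays of a group came from separate mice or cultures. The p-values therefore cover the spread between duplicate arrays and no more, and that spread may be technical, and the number of arrays limits the precision.

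Crosslinking of surface IgM activates the kinases of the receptor complex, whose signalling chains are CD79A and CD79B. Calcium, MAP kinase and NF-kB signals follow, and within the first hours immediate early genes such as Egr1, Myc and the NR4A genes are switched on while many genes of the resting B cell are switched off. Zfx encodes an X-linked zinc finger transcription factor known for its part in the self-renewal of stem cells and in the homeostasis and activation of lymphocytes.

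Zfx was represented by 4 probe sets. The brightest had signals of 974 and 1035 in ZFXcko cells at 2 h and 2189 and 2618 at 0 h, against 809.6 and 789.6 in ZFXwt cells at 2 h and 982 and 1041 at 0 h. On this probe set Zfx was higher in ZFXcko than in ZFXwt cells at both times, by 0.32 at 2 h and 1.23 at 0 h, and its response difference was -0.91 ± 0.13 (SE; adjusted p = 0.000237, limma). The other 3 probe sets gave response differences of 0.32, -0.06 and -0.57, the last from a probe set that did not pass the filter on low signals. The mean over the gene's probe sets that passed it gave -0.21, which was not called. The labels do not state which part of the gene is deleted, so the probe sets do not check the genotype.

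The control probe sets were not alike in the 2 responses. The signal of the actin probe set at the 5′ end, as a percentage of that at the 3′ end, was 10.6% and 10.8% in ZFXcko cells at 2 h and 1.99% and 1.80% at 0 h, against 8.51% and 8.41% in ZFXwt cells at 2 h and 3.27% and 3.33% at 0 h. These ratios had a response difference of 1.14 for actin and of 1.23 for Gapdh. Within actin, the response difference was -0.24 at the 3′ end, 0.67 in the middle and 0.87 at the 5′ end, while the 9 spike-in probe sets ranged between 0.11 and 0.34. The probe sets for 18S RNA had 0.15 at the 5′ end and -0.35 at the 3′ end. The dim control PyruCarbMur ran the other way, with -0.44 at the 5′ end and 0.13 at the 3′ end, and TransRecMur, also dim, had -0.36 and -0.55 with 0.25 in the middle. The position of the probe sets of other genes was not analysed here, and the part of it in any single response difference was not tested.

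**Figure D1:**
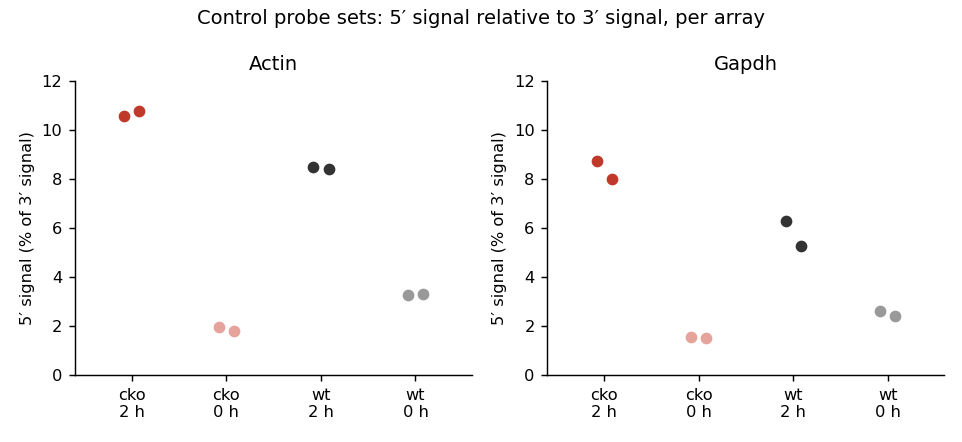
Signal of the 5′ control probe set as a percentage of the 3′ one (vertical axes) for actin and Gapdh, 1 point per array in the 4 groups. Both arrays of ZFXcko at 2 h lie highest, at 10.6% and 10.8% for actin, and both arrays of ZFXcko at 0 h lie lowest, at 1.99% and 1.80%.

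Of all tested genes, 20.4% were called in the response difference, 8.59% (1047) as positive and 11.8% (1444) as negative, and the median of all genes was -0.04. At an unadjusted p under 0.05 there were 3940 genes. At least 2-fold in size were 599 of the called genes, 243 positive and 356 negative. The 2 h responses themselves were larger: 63.0% of genes were called in ZFXcko cells (23.8% rising, 39.2% falling) and 59.7% in ZFXwt cells (23.5% rising, 36.2% falling). The SD over genes was 1.13 and 1.04 for these responses and 0.58 for the response difference. Across the 12190 genes, which are not independent replicates, the 2 responses had a Pearson r of 0.86. With every array scaled to its median, 56.4% of the calls were positive, against 42% without this step, so the balance of directions depends on the scaling.

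**Figure D2:**
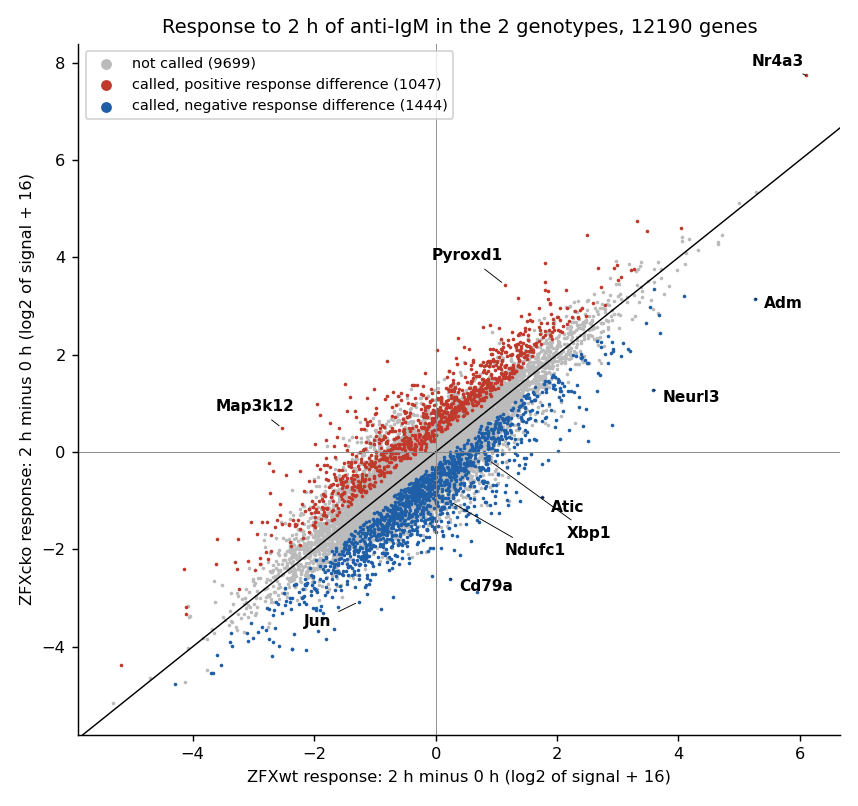
Change between 0 and 2 h of anti-IgM in ZFXcko cells (vertical) against ZFXwt cells (horizontal), both as log2 of signal + 16, 1 point per gene, with the line of equal response. Red points are the 1047 genes called positive, blue points the 1444 called negative and grey points the rest. Nr4a3 lies at the top right, above the line, with changes of 7.74 and 6.10.

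Among the 1444 genes called negative, 673 fell in both genotypes and fell further in ZFXcko cells, 297 fell in ZFXcko cells without a call in ZFXwt cells, and 211 rose in both but less in ZFXcko cells. A further 160 rose in ZFXwt cells without a call in ZFXcko cells, 95 fell in ZFXcko cells and rose in ZFXwt cells, and 8 were called in neither. Among the 1047 called positive, 413 rose in both and rose further in ZFXcko cells, 206 fell in both but less in ZFXcko cells, and 175 rose in ZFXcko cells without a call in ZFXwt cells. The rest were 200 that fell in ZFXwt cells without a call in ZFXcko cells, 46 that rose in ZFXcko cells and fell in ZFXwt cells, and 7 called in neither. A response in the same direction that was larger in ZFXcko cells was thus found for 1086 genes, and one that was smaller for 417. The smaller responses numbered 276 without replicate 1 of ZFXcko at 2 h.

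A response difference is also the genotype difference at 2 h minus that at 0 h. A gene was counted as differing mostly at one time when the size of its genotype difference there was at least 2 times that at the other. Between the genotypes, 28.5% of all genes were called at 2 h (12.8% higher and 15.7% lower in ZFXcko cells) and 32.3% at 0 h. By the count above, 948 called genes (38.1%) differed mostly at 0 h, 765 (30.7%) mostly at 2 h and 778 (31.2%) at both. The last class depended on the ratio, with 439 genes (17.6%) at a ratio of 1.5 and 1218 (48.9%) at a ratio of 3, where it was the largest of the 3 classes. The genotype differences changed sign, with a call at each time, for 269 genes that were lower in ZFXcko cells at 2 h and higher at 0 h. The opposite, higher in ZFXcko cells at 2 h and lower at 0 h, held for 143 genes.

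Each gene was represented by its brightest probe set, and other probe sets of the same gene often gave another value. Of the 2491 called genes, 1554 had another probe set that passed the filter on low signals. The second brightest had the same sign in 928 (59.7%) of these, was called with the same sign in 242 and was called with the opposite sign in 99. Where the second probe set had a signal of at least 200, the share with the same sign was 58.6%. By the mean over a gene's probe sets, 418 of the 1554 were again called with the same sign. Where the mean over a gene's probe sets changed the call or sign of a named gene, its response difference is given beside the gene or with the alternatives on the processing.

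The largest positive response differences belonged mostly to dim genes. Map3k12, a MAP kinase kinase kinase, had signals of 179 and 162 in ZFXcko cells at 2 h and 118 and 115 at 0 h, against 25.9 and 43.2 in ZFXwt cells at 2 h and 287 and 257 at 0 h (response difference 3.02 ± 0.38, adjusted p = 9.56e-05, limma). Esrp2, an epithelial splicing factor, had 129 and 106 in ZFXcko cells at 2 h and 53.3 and 49.9 at 0 h, against 38.4 and 38.8 in ZFXwt cells at 2 h and 185 and 208 at 0 h. In Esrp2 the order of the genotypes was thus reversed between the times, with no overlap of arrays at either. The same reversal, with calls at both times, was found for Cd302, a C-type lectin receptor (2.90), Ackr4, a scavenging receptor of chemokines (2.32), Ccdc39 (2.68), Myo1h (2.54) and Frat1 (2.66). Adcy9, an adenylyl cyclase, fell by 2.75 in ZFXwt cells and had signals of 34.5 and 28.3 in ZFXcko cells at 2 h and 20.2 and 67.2 at 0 h, against 55.2 and 57.2 in ZFXwt cells at 2 h and 577 and 379.8 at 0 h. Its difference lay at 0 h, where ZFXcko cells were lower by 3.14. The other genes of this group were Zdhhc12 (2.33), Cspg4 (2.31, and 1.96 without a call when replicate 2 of ZFXcko at 2 h was left out), Pyroxd1 (2.30) and Hacd1 (2.24).

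The receptor chain gene Cd79a and the purine synthesis gene Atic, both bright, had large negative response differences. Cd79a, a signalling chain of the B cell receptor, had signals of 389 and 378 in ZFXcko cells at 2 h and 2430.5 and 2391 at 0 h, against 1505 and 1276 in ZFXwt cells at 2 h and 1363 and 1012 at 0 h. It fell by 2.60 in ZFXcko cells, and in ZFXwt cells its change of 0.24 was not called (response difference -2.84 ± 0.16, adjusted p = 2.28e-07, limma). Cd79a rests on a single probe set, and the gene of the other chain, Cd79b, had -0.175 and was not called. Atic, which catalyses the last steps of purine synthesis, had 753 and 876 in ZFXcko cells at 2 h and 1603 and 1514 at 0 h, against 2003 and 2276 in ZFXwt cells at 2 h and 614 and 630.3 at 0 h. It fell in ZFXcko cells and rose in ZFXwt cells, with a response difference of -2.68 ± 0.12 (adjusted p = 5.38e-08, limma). Neurl3, an E3 ubiquitin ligase, rose less in ZFXcko cells, with signals of 763 and 909 at 2 h and 371 and 300.4 at 0 h, against 2444 and 2088 in ZFXwt cells at 2 h and 192 and 156 at 0 h (response difference -2.31). In Neurl3, ZFXcko cells were the lower at 2 h and the higher at 0 h.

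The dimmer genes with large negative response differences were Akr1c13, an aldo-keto reductase (-3.56), Syt6 (-2.40), Ankrd52 (-2.35), Ankrd24 (-2.31) and Tet3, which oxidises 5-methylcytosine (-2.29). The histone chaperone gene Hira had -2.51, the synaptotagmin gene Syt11 -2.49 and Uxs1 -2.32. With the mean over their probe sets these 3 were not called, at -1.16, -0.47 and -0.61. The F-box gene Fbxo34 had -2.30 at the edge of the threshold and lost its call when any of 6 arrays was left out, with values between -2.42 and -1.45. The 6 were all but replicate 1 of ZFXwt at 0 h and replicate 2 of ZFXcko at 2 h. By the mean over probe sets its value was again -2.30, without a call (adjusted p = 0.073, limma).

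**Figure D3:**
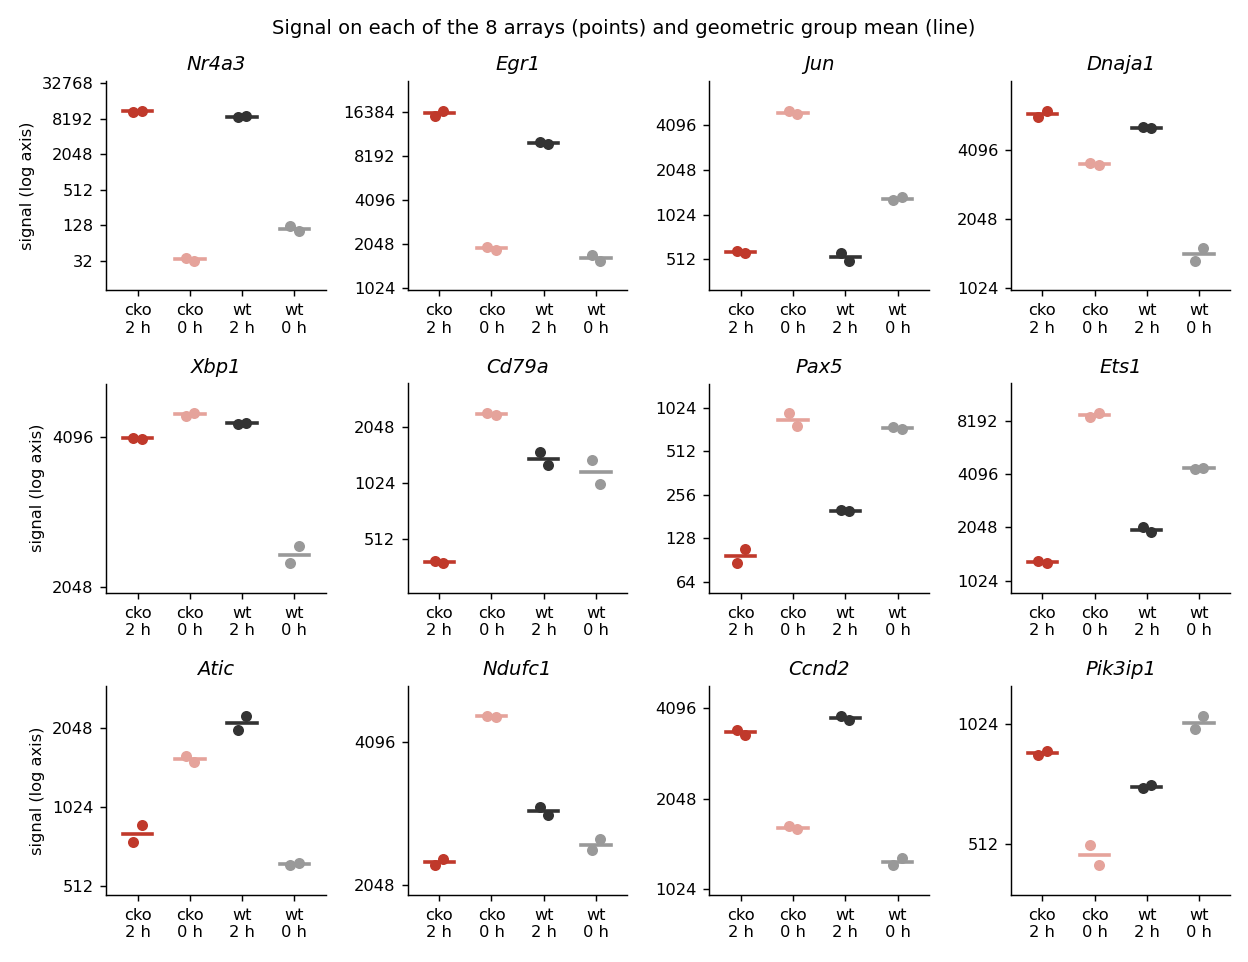
Signal on a log axis (vertical) of 12 genes on each of the 8 arrays, in the order ZFXcko 2 h, ZFXcko 0 h, ZFXwt 2 h and ZFXwt 0 h, with lines at the geometric mean of each group. The genotypes lie apart at 0 h and close together at 2 h in Jun and Dnaja1, and apart in opposite directions at the 2 times in Cd79a and Atic.

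Over all tested genes 8.59% were called positive and 11.8% negative, the shares to set beside the counts of every gene group below. Immediate early genes are transcribed within minutes without new protein. They had 4 of 29 tested members called positive and 5 called negative, with a median of 0.08. Those called positive were Egr1, Ier2, Dusp2 and Dusp6, and among those called negative Jun and Jund fell in both genotypes and fell further in ZFXcko cells. The NR4A receptors, a separate group of 3 early genes, had 2 called positive, and 1 when the spread was not modelled on signal. Nr4a3, an orphan nuclear receptor, had signals of 10566 and 11001 in ZFXcko cells at 2 h and 36.4 and 32.5 at 0 h, against 8701 and 8942 in ZFXwt cells at 2 h and 126 and 101 at 0 h. Its response difference was 1.64 ± 0.15 (adjusted p = 6.94e-06, limma), most of which lay at 0 h, where ZFXcko cells were lower by 1.35. At 2 h the arrays of ZFXcko cells lay above those of ZFXwt cells, but the difference of 0.29 was not called. Nr4a2 had 4936 and 4825 in ZFXcko cells at 2 h and 161 and 234 at 0 h, against 2759.8 and 2780.0 in ZFXwt cells at 2 h and 284 and 192 at 0 h, a response difference of 1.06 ± 0.27 (adjusted p = 0.0129, limma). Here the 2 genotypes overlapped at 0 h and were apart at 2 h, and the call was lost without replicate 1 of ZFXcko at 0 h (0.81) or replicate 1 of ZFXwt at 0 h (0.80). The second brightest probe set of Nr4a2 gave 0.33, which was not called. Its dimmer probe sets gave 1.46 and 2.13, both called, and 0.21 and -0.78, neither called. Nr4a1, the third of the family, rose in both genotypes and had a response difference of 0.27 ± 0.09 that was not called (adjusted p = 0.0523, limma), though it was called without replicate 1 of ZFXwt at 0 h (0.36), under median scaling (0.36), under quantile normalization (0.27), with a pseudocount of 64 (0.26) and with the filter at the 60th percentile (0.27).

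Ier2, which encodes a nuclear protein, rose by 2.15 in ZFXcko cells and 1.12 in ZFXwt cells (response difference 1.03 ± 0.14, adjusted p = 0.000133, limma). Egr1, a zinc finger factor that is a common readout of MAP kinase signalling, had signals of 15383 and 16586 in ZFXcko cells at 2 h and 1950.4 and 1849 at 0 h, against 10175 and 9775 in ZFXwt cells at 2 h and 1725 and 1569 at 0 h (response difference 0.47 ± 0.09, adjusted p = 0.00179, limma). Its genotype difference was 0.68 at 2 h and 0.20 at 0 h, both called. Dusp6, a phosphatase that switches off ERK, fell less in ZFXcko cells, with 347 and 286 at 2 h and 798 and 790.3 at 0 h, against 135 and 106 in ZFXwt cells at 2 h and 743 and 829 at 0 h (response difference 1.27). The 2 genotypes overlapped at 0 h in Dusp6 and lay apart at 2 h.

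Jun and Jund, subunits of the AP-1 factor, went the other way. Jun had 586 and 562 in ZFXcko cells at 2 h and 5079 and 4838 at 0 h, against 568 and 503 in ZFXwt cells at 2 h and 1278 and 1334 at 0 h. It was higher in ZFXcko cells by 1.91 at 0 h, and at 2 h the genotypes were 0.10 apart, without a call. The response difference of Jun was -1.81 ± 0.14 (adjusted p = 2.9e-06, limma) and that of Jund -1.54 ± 0.14. Among other genes of early activation, Myc rose by 3.12 in ZFXcko cells and 3.55 in ZFXwt cells, and its response difference of -0.43 ± 0.17 was not called (adjusted p = 0.0919, limma), but was called at -0.67 without replicate 1 of ZFXcko at 0 h. Cd69, an early activation antigen, had 0.17 ± 0.12 and the costimulatory ligand Cd86 -0.19 ± 0.10, neither called. Gadd45b, a stress and NF-kB target, rose less in ZFXcko cells (-0.81).

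The binding partners and antagonists of MYC had 1 of 11 tested members called positive and 3 negative, with a median of -0.44, and the positive calls were 0 by the mean over probe sets and 2 under median scaling. Max, the obligate partner of MYC, had signals of 179 and 195 in ZFXcko cells at 2 h and 235 and 231 at 0 h, against 396 and 364 in ZFXwt cells at 2 h and 129 and 193 at 0 h, and its response difference was -1.48 ± 0.24 (adjusted p = 0.000649, limma). Max rose in ZFXwt cells, and in ZFXcko cells its change of -0.30 was not called. Mnt, a repressor that competes for MAX, fell in ZFXcko cells and rose in ZFXwt cells (-1.26). Mxd4, another such repressor, had -2.04, and Mga, a MAX dimerisation protein, 0.86. Neither kept its call with the mean over its probe sets, which gave -0.73 for Mxd4 and 0.99 for Mga.

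NF-kB subunits, inhibitors and targets had 2 of 18 tested members called positive and 9 negative, with a median of -0.34. Under median scaling 6 were called negative, and 5 when the spread was not modelled on signal. The positive calls were 1 without replicate 2 of ZFXcko at 0 h or at 2 h or replicate 1 of ZFXwt at 0 h. Tnfaip3, which encodes the deubiquitinase A20 that restrains NF-kB, had signals of 4914 and 4885 in ZFXcko cells at 2 h and 1949 and 2174 at 0 h, against 6276 and 6247 in ZFXwt cells at 2 h and 1361 and 1284 at 0 h. ZFXcko cells were lower at 2 h and higher at 0 h, both called, and the response difference was -0.98 ± 0.11 (adjusted p = 4.51e-05, limma). The IkB gene Nfkbie fell by 0.65 in ZFXcko cells and rose by 0.31 in ZFXwt cells (response difference -0.96). Nfkbid, another IkB gene, was not called different at 0 h (0.07) and rose to 8208 and 8963 in ZFXcko cells, against 12353 and 11881 in ZFXwt cells (-0.57). Bcl3, an IkB protein that acts as a coactivator, had 276 and 280.2 in ZFXcko cells at 2 h and 768 and 722 at 0 h, against 571 and 627 in ZFXwt cells at 2 h and 663 and 640.0 at 0 h (-1.25 ± 0.13, adjusted p = 2.24e-05, limma). Bcl3 fell in ZFXcko cells, whereas in ZFXwt cells its change of -0.12 was not called.

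Cytokine and chemokine genes had 0 of 14 tested members called positive and 6 negative, with a median of -0.67, and 3 were called negative without replicate 1 of ZFXcko at 2 h. Ltb, the membrane-bound lymphotoxin chain, had 1848 and 1933 in ZFXcko cells at 2 h and 12611 and 12219.7 at 0 h, against 2526 and 2314 in ZFXwt cells at 2 h and 6369 and 6969 at 0 h (-1.25 ± 0.11, adjusted p = 5.46e-06, limma). Its larger fall in ZFXcko cells started from a higher level. Adm, which encodes the peptide adrenomedullin, rose by 3.15 in ZFXcko cells and 5.26 in ZFXwt cells (-2.11), and the mean over its probe sets, -0.90, was not called. Il6, an inflammatory cytokine, had -1.84 at signals that did not pass 29.9 on any of the 8 arrays. Its mean signal over all 12 arrays, which include those at 12 h, was 42.2.

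Genes of the receptor complex and its first kinases and adaptors had 4 of 21 tested members called positive and 6 negative, with a median of 0.01, and by the mean over probe sets 2 and 4. Besides Cd79a, the coreceptor component Cd81 (-0.65) and the adaptor Bank1 (-0.65) were called negative and the Src family kinase Blk (0.44) positive. Bank1 had signals of 3954 and 4179 in ZFXcko cells at 2 h and 17057 and 17130.5 at 0 h, against 5348 and 5047 in ZFXwt cells at 2 h and 13313 and 14541 at 0 h. It fell in both genotypes and ended lower in ZFXcko cells, having started higher. Inhibitory receptors and phosphatases had 1 of 17 called positive and 4 negative, and by the mean over probe sets 1 and 2. Cd22, a sialic acid-binding inhibitory receptor, fell by 3.90 in ZFXcko cells and fell by 3.38 in ZFXwt cells (-0.52 ± 0.07, adjusted p = 0.000158, limma). The adaptor Dok3 had -0.83 and the ubiquitin ligase Cblb -0.83, the last not called with the mean over its probe sets (-0.34). Cd5, a negative regulator of the receptor, was called positive (0.85).

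Transcription factors of the B lineage had 2 of 20 tested members called positive and 8 negative, with a median of -0.23. Pax5, which maintains B cell identity, had signals of 86.2 and 108 in ZFXcko cells at 2 h and 936 and 766 at 0 h, against 199.8 and 198 in ZFXwt cells at 2 h and 751 and 732 at 0 h (-1.12 ± 0.18, adjusted p = 0.000855, limma). Its arrays lay lower in ZFXcko cells at 2 h and above those of ZFXwt cells at 0 h, where the difference was not called. Bcl11a, needed for lymphoid development, fell by 3.07 in ZFXcko cells and fell by 2.47 in ZFXwt cells, from levels that overlapped at 0 h (-0.60). For Ets1, which restrains plasma cell differentiation, the probe sets disagreed. The brightest gave -1.59 ± 0.08 (adjusted p = 1.32e-07, limma), 2 others gave 0.49 and 0.55, each called positive, and the mean gave -0.16, which was not called. The 2 positive calls in this group were 0 with the spread not modelled on signal, 0 without replicate 2 of ZFXwt at 0 h or at 2 h, and 1 without any other array but replicate 1 of ZFXcko at 0 h.

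**Figure D4:**
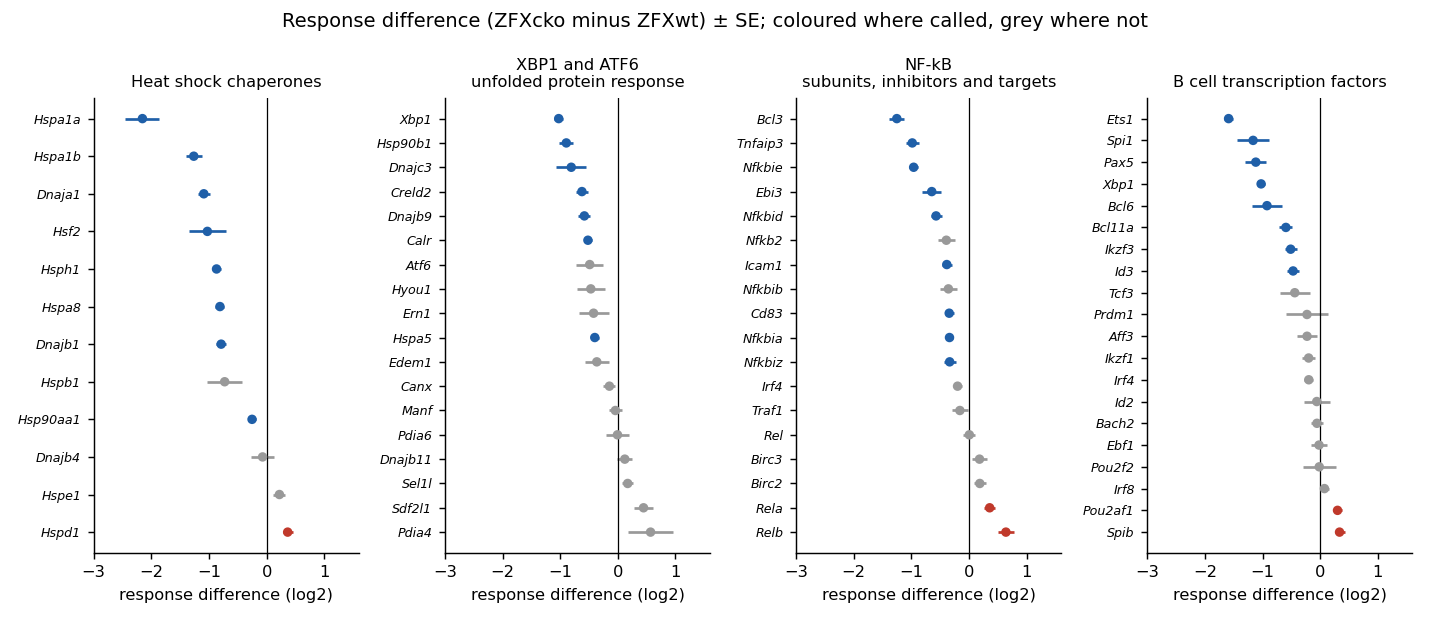
Response difference (horizontal, log2; bars are SE) of every tested member of 4 gene groups, blue where called negative, red where called positive and grey where not called. Of the heat shock group, chaperones and the factor gene Hsf2, 8 of 12 lie to the left and are called. For NF-kB genes these are 9 of 18.

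Heat shock chaperones refold proteins, most of them in the cytosol, and are driven by heat shock factors. They were grouped with the factor gene Hsf2, which is not a chaperone. The group had 1 of 12 tested members called positive and 8 negative, Hsf2 (-1.03) among the latter, with a median of -0.80. Under median scaling 6 were called negative, and 6 or 7 with each array left out in turn. Dnaja1, a cochaperone of HSP70, had signals of 5683 and 6021 in ZFXcko cells at 2 h and 3584 and 3494 at 0 h, against 5104 and 5076 in ZFXwt cells at 2 h and 1350.3 and 1530.0 at 0 h (-1.09 ± 0.10, adjusted p = 1.02e-05, limma). The genotypes differed by 1.29 at 0 h, and the difference of 0.20 at 2 h was not called. Hsph1, a nucleotide exchange factor for HSP70, fell in both genotypes, with 2961 and 2929 in ZFXcko cells at 2 h and 9464 and 9331 at 0 h, against 2473 and 2599 in ZFXwt cells at 2 h and 4604 and 4255 at 0 h (-0.87). By its brightest probe set Hspa8, the constitutive HSP70, fell by 0.87 in ZFXcko cells and was not called in ZFXwt cells (-0.81). Its other probe sets disagreed, with 0.585 called positive, -0.979 called negative and 0.01 not called. Dnajb1, another cochaperone, had -0.79.

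Hspa1a and Hspa1b, the inducible HSP70 genes, were picked out here after their values were seen. Hspa1a had 1714 and 1416 in ZFXcko cells at 2 h and 3777 and 4767 at 0 h, against 1049.8 and 1423 in ZFXwt cells at 2 h and 682 and 795 at 0 h (-2.15 ± 0.29, adjusted p = 0.000204, limma). Hspa1b had 3243 and 2913 in ZFXcko cells at 2 h and 10582 and 11042 at 0 h, against 1837 and 2013 in ZFXwt cells at 2 h and 2734 and 2892 at 0 h, and its 3 probe sets gave -1.26, -1.74 and -1.63. The 2 genes are near-identical copies whose probe sets may read both, so their values are uncertain as to which copy they stand for. In all of these chaperone genes ZFXcko cells were the higher at 0 h.

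A motif of heat shock factors, GAANNTTC, was searched for on both strands in the RefSeq promoters (GRCm38.p6) that hold 250 bases before and 50 after each gene start. It was found in 7 of the 10 heat shock genes with a promoter in the table and in 7.07% of the 9885 tested genes with one, against 7.54% of the genes called negative and 6.79% of those called positive. The following 5 promoters hold the motif and are printed 5′ to 3′ on the strand of the gene, with the motif in capitals. The first 4 belong to chaperone genes above that were called negative. The last belongs to Hspd1, the mitochondrial chaperonin HSP60, which was the 1 member called positive, rising by 1.31 in ZFXcko cells and 0.95 in ZFXwt cells (response difference 0.36). They lie at chr17:34972107-34972406 (minus strand, Hspa1a), chr17:34959189-34959488 (minus strand, Hspa1b), chr5:149636287-149636586 (minus strand, Hsph1), chr4:40722218-40722517 (plus strand, Dnaja1) and chr1:55087883-55088182 (minus strand, Hspd1).
Hspa1a: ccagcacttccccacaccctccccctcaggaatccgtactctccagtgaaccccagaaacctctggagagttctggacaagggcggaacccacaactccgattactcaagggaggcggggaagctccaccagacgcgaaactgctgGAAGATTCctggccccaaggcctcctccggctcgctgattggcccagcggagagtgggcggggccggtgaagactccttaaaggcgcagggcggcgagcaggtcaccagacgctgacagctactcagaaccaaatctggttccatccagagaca
Hspa1b: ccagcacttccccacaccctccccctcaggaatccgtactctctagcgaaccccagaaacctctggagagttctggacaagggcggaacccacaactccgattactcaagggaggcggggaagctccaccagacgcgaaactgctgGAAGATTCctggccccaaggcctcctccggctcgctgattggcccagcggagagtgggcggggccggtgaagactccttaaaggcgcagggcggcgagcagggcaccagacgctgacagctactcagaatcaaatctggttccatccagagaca
Hsph1: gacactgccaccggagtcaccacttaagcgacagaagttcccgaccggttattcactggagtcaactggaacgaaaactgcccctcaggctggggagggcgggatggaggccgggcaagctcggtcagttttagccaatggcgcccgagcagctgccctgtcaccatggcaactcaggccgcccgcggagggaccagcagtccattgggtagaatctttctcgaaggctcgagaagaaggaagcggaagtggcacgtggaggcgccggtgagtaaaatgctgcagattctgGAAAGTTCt
Dnaja1: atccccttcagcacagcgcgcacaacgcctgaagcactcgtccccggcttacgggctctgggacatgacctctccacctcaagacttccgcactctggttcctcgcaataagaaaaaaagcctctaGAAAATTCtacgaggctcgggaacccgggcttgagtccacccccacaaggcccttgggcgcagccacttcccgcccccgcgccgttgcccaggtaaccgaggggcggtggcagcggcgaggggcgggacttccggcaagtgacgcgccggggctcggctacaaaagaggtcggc
Hspd1: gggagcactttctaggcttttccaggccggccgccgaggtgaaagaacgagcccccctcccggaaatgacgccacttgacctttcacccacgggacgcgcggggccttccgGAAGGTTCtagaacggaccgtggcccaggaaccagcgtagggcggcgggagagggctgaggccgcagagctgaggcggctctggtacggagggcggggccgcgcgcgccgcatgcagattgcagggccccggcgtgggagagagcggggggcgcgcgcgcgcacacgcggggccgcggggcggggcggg
The motif begins 104 bases before the gene start in Hspa1a and Hspa1b, whose windows share 296 of 300 bases, 124 bases before it in Dnaja1 and 139 bases before it in Hspd1. Some of these genes have more than 1 start in the table. Of the 3 windows of Dnaja1 and the 2 of Hspd1, 1 each held the motif and is the one printed. In Hsph1 it lies after the start in both windows, of which the first is printed. The same letters were not in the windows of Dnajb1. The core AGGCCT, reported for ZFX, was searched in the same way and was in 9.95% of promoters of genes called positive and 13.9% of those called negative, against 12.7% of all. Of the 10 heat shock genes with a promoter in the table, 4 held this core. Among them were Hspa1a and Hspa1b, whose printed windows show it in lower case. A match describes these letters only.

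Genes of the XBP1 and ATF6 arms of the unfolded protein response, which widen the folding capacity of the endoplasmic reticulum, had 0 of 18 tested members called positive and 7 negative, with a median of -0.41, and 1 was called positive without replicate 2 of ZFXwt at 2 h. Xbp1, the transcription factor of this response, had signals of 4071 and 4057 in ZFXcko cells at 2 h and 4516 and 4562 at 0 h, against 4346 and 4368 in ZFXwt cells at 2 h and 2290.1 and 2476 at 0 h (-1.03 ± 0.08, adjusted p = 1.9e-06, limma). Xbp1 rose by 0.87 in ZFXwt cells and fell by 0.16 in ZFXcko cells, and the 2 h levels, -0.10 apart, were not called different. The chaperone genes Hsp90b1 (-0.89) and Calr (-0.52) and the gene Creld2 of the same compartment (-0.62) were also called negative. Hsp90b1 rose in both genotypes, with 1778 and 1602 in ZFXcko cells at 2 h and 1165 and 1233 at 0 h, against 1805 and 1975 in ZFXwt cells at 2 h and 720.5 and 709 at 0 h. In Xbp1, Hsp90b1 and Creld2 the genotype difference was called at 0 h and not at 2 h.

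The integrated stress response, in which ATF4 induces amino acid synthesis and transport, had 5 of 30 tested members called positive and 3 negative, with a median of -0.06. The positive calls were 2 without replicate 2 of ZFXcko at 0 h or replicate 1 of ZFXwt at 2 h, and 3 without replicate 1 or 2 of ZFXcko at 2 h, replicate 2 of ZFXwt at 0 h or replicate 2 of ZFXwt at 2 h. With the spread not modelled on signal they were 2. Its central factors Atf4 and Ddit3 were not called in the response difference. Atf4 had signals of 7095 and 7219 in ZFXcko cells at 2 h and 2066 and 2184 at 0 h, against 4452 and 4329 in ZFXwt cells at 2 h and 1454 and 1339 at 0 h. It was higher in ZFXcko cells at both times, by 0.70 at 2 h and 0.60 at 0 h, with a response difference of 0.10 ± 0.08. Ddit3, the factor CHOP, had -0.17 ± 0.13, Asns, asparagine synthetase, 0.21 ± 0.14 and Trib3, a pseudokinase, -0.19 ± 0.75. None of these was called by its brightest probe set, but the other probe sets differed. The second probe set of Asns, about as bright, gave 1.07 (adjusted p = 0.00013, limma), and the mean of the 2 was called positive at 0.64 (adjusted p = 0.00207, limma). The second probe set of Trib3 gave 1.82 (adjusted p = 0.0019, limma), and the mean gave 0.82 without a call. By its brightest probe set Trib3 gave 0.52 without replicate 2 of ZFXwt at 0 h, again without a call. Pck2, a mitochondrial carboxykinase, was called positive (0.86), while Ddit4, an inhibitor of mTORC1, was called negative (-0.79). Mthfd2, of mitochondrial folate metabolism, had -0.81, and with the mean over its probe sets, -0.11, it was not called.

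Of the aminoacyl-tRNA synthetases 4 of 19 were called positive and 3 negative, with a median of 0.13. Tars, the threonyl-tRNA synthetase, had 5578 and 5876 in ZFXcko cells at 2 h and 517 and 539 at 0 h, against 3437 and 3531 in ZFXwt cells at 2 h and 500.2 and 531 at 0 h (0.68 ± 0.10, adjusted p = 0.000249, limma). The genotypes of Tars overlapped at 0 h and were apart at 2 h. Kars, the lysyl enzyme, had 0.80. Hars, the histidyl enzyme, fell in ZFXcko cells and rose in ZFXwt cells (-0.71), but its mean over probe sets, -0.22, was not called, and by that measure 0 synthetases were called negative, and 5 positive. Ribosome biogenesis genes were called both ways, 6 of 31 positive and 7 negative, with a median of 0.03. By the mean over probe sets these were 2 and 2, and the negative calls were 3 under median scaling or with the spread not modelled on signal. Without replicate 2 of ZFXcko at 2 h or replicate 2 of ZFXwt at 2 h, 3 were called positive, and without replicate 1 of ZFXcko at 0 h or replicate 1 of ZFXwt at 2 h, 3 were called negative. Ncl, the nucleolar protein nucleolin, rose by 2.72 in ZFXcko cells and 2.06 in ZFXwt cells (0.66), and Gar1, of the box H/ACA particles, by 1.43 and 2.01 (-0.58). Rpl11, a protein of the large ribosomal subunit, was called positive (0.86).

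Oxidative phosphorylation subunits had 3 of 28 tested members called positive and 11 negative, with a median of -0.23. Under median scaling 8 were called negative, and 6 under quantile normalization or when the spread was not modelled on signal. The positive calls fell to 1 without replicate 1 of ZFXcko at 0 h, replicate 2 of ZFXwt at 0 h, or either array of ZFXwt at 2 h. The 4 with the smallest p were complex I subunits. Ndufc1 had signals of 2247 and 2321 in ZFXcko cells at 2 h and 4637 and 4611 at 0 h, against 2988 and 2870.2 in ZFXwt cells at 2 h and 2418 and 2556 at 0 h (-1.25 ± 0.07, adjusted p = 3.43e-07, limma). It fell in ZFXcko cells and rose in ZFXwt cells, so that ZFXcko cells were the lower at 2 h and the higher at 0 h. Ndufa5 (-1.14) and Ndufa1 (-0.76) followed the same course. Ndufv2 (-0.90) fell in both genotypes. In glycolysis, Pfkl, a phosphofructokinase (-1.27), and Slc2a3, a glucose transporter (-0.53), were the 2 members called negative of 14. Called in either direction were 21.4% of this group, against 20.4% of all genes. The 1 called positive lost its call without any of 6 arrays, all but replicate 2 of ZFXcko at 2 h and replicate 1 of ZFXwt at 0 h.

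Sterol and fatty acid synthesis genes had 6 of 18 tested members called positive and 3 negative, with a median of 0.42. The positive calls were 3 by the mean over probe sets and 3 without replicate 1 of ZFXcko at 2 h, replicate 2 of ZFXwt at 0 h or replicate 2 of ZFXwt at 2 h. Insig1, which retains the sterol sensor in the endoplasmic reticulum, had 895 and 816 in ZFXcko cells at 2 h and 250.2 and 277 at 0 h, against 503 and 558 in ZFXwt cells at 2 h and 275 and 328 at 0 h (0.85 ± 0.16, adjusted p = 0.00208, limma). Its genotypes overlapped at 0 h and lay apart at 2 h. Srebf2, the transcription factor of cholesterol synthesis, fell in ZFXcko cells and rose in ZFXwt cells (-1.22). Hmgcs1, an early enzyme of the pathway, had -0.76 by its brightest probe set and 0.32, not called, by the mean. In purine and pyrimidine synthesis 3 of 14 were called positive and 1 negative (Atic), with a median of 0.32, and 5 were positive under median scaling. Adsl, the adenylosuccinate lyase that acts just before Atic, rose further in ZFXcko cells, with 676 and 797 at 2 h and 255 and 156 at 0 h, against 621 and 583 in ZFXwt cells at 2 h and 366 and 341 at 0 h (1.05).

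The G1 cyclins and their kinases had 3 of 12 tested members called positive and 3 negative, with a median of -0.01, and by the mean over probe sets 2 and 1. Ccnd2, the main D-type cyclin of activated B cells, had signals of 3470.3 and 3344 in ZFXcko cells at 2 h and 1658 and 1622 at 0 h, against 3866 and 3752 in ZFXwt cells at 2 h and 1229 and 1299 at 0 h (-0.53 ± 0.08, adjusted p = 0.000498, limma). Ccnd2 rose in both genotypes and was higher in ZFXcko cells at 0 h by 0.37. At 2 h the arrays of ZFXcko cells lay lower, and the difference of -0.16 was not called. Cdk6, a partner of the D-type cyclins, rose in ZFXcko cells and fell in ZFXwt cells (0.71). Ccnd3 (1.01), Ccne1 (-0.95) and the kinase inhibitor Cdkn1a (-0.84) were called by the brightest probe set only, and the mean over probe sets gave 0.42, -0.49 and -0.57. Cdkn1b, the inhibitor p27, fell less in ZFXcko cells, with 206 and 164 at 2 h and 539.9 and 547 at 0 h, against 113 and 88.8 in ZFXwt cells at 2 h and 609 and 594 at 0 h (0.92). Among 22 genes of DNA replication 0 were called positive and 2 negative, one of them the flap endonuclease gene Fen1 (-0.75). Without replicate 2 of ZFXcko at 0 h or replicate 1 of ZFXwt at 0 h or at 2 h, under median scaling or with a replicate block, 1 was called positive, and by the mean over probe sets 2 were called positive and 1 negative.

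Survival and death genes of the BCL2 family had 0 of 12 tested members called positive and 3 negative. This was 25.0% in either direction, against 20.4% of all genes. By the mean over probe sets 0 were called, and under median scaling or with the spread not modelled on signal 1 was called negative. The antiapoptotic Bcl2l1, which encodes BCL-XL, had signals of 551 and 698 in ZFXcko cells at 2 h and 355 and 256 at 0 h, against 857 and 858 in ZFXwt cells at 2 h and 442 and 487 at 0 h. It rose in both genotypes, and the response difference of 0.14 ± 0.24 was not called. Without replicate 2 of ZFXcko at 0 h it was -0.08, and without replicate 2 of ZFXcko at 2 h -0.03. Bcl2l11, the death gene BIM, had signals of 7826 and 7428 in ZFXcko cells at 2 h and 2651 and 3634 at 0 h, against 11372 and 11399.9 in ZFXwt cells at 2 h and 3073 and 3388 at 0 h (-0.52 ± 0.15, adjusted p = 0.0281, limma). It rose less in ZFXcko cells, but the call was lost when any array other than replicate 2 of ZFXwt at 0 h or replicate 1 of ZFXcko at 0 h was left out, with values between -0.56 and -0.29. By the mean over probe sets Bcl2l11 had -0.22, not called. Bmf, a BH3-only gene (-0.69), lost its call without replicate 2 of ZFXwt at 0 h (-0.58), replicate 2 of ZFXwt at 2 h (-0.64), replicate 2 of ZFXcko at 0 h (-0.69) or replicate 1 of ZFXcko at 2 h (-0.54), and by the mean over probe sets (-0.59). The antiapoptotic Mcl1 (-0.26) lost it without replicate 1 of ZFXwt at 0 h (-0.25), replicate 1 of ZFXwt at 2 h (-0.23) or replicate 2 of ZFXcko at 0 h (-0.22), and was at 0.02 under quantile normalization. Without replicate 2 of ZFXcko at 0 h, 0 members of the family were called, and without replicate 1 of ZFXcko at 2 h, replicate 1 of ZFXwt at 0 h or replicate 1 of ZFXwt at 2 h, 1 was.

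Genes of quiescent lymphocytes had 7 of 23 tested members called positive and 5 negative, with a median of 0.05, and the negative calls were 1 by the mean over probe sets and 3 without replicate 1 of ZFXcko or of ZFXwt at 2 h. With the spread not modelled on signal 3 were called positive and 3 negative. Pik3ip1, an inhibitor of PI3 kinase, had signals of 858 and 878 in ZFXcko cells at 2 h and 508 and 452 at 0 h, against 708 and 719 in ZFXwt cells at 2 h and 995 and 1075 at 0 h (1.36 ± 0.14, adjusted p = 2.52e-05, limma). It rose in ZFXcko cells and fell in ZFXwt cells, from a lower level at 0 h in ZFXcko cells. Tsc22d3, the glucocorticoid-induced leucine zipper, fell in both and fell less in ZFXcko cells (1.05). In cyclic AMP signalling, besides Adcy9, the catalytic subunit gene Prkaca was called negative (-1.34). Keap1, the inhibitor of NRF2, had -1.56 and was not called by the mean over probe sets (-0.73).

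Receptors and regulators of migration had 4 of 18 tested members called positive and 2 negative, with a median of 0.25, and by the mean over probe sets 2 and 2. The negative calls were 1 without replicate 1 of ZFXcko at 0 h, replicate 2 of ZFXcko at 2 h, replicate 2 of ZFXwt at 0 h or replicate 1 of ZFXwt at 2 h. Cxcr4, the receptor for CXCL12, rose to 4007 and 3731 in ZFXcko cells, against 3104 and 3120.1 in ZFXwt cells, and had been at 1941 and 1932 in ZFXcko cells and 2225 and 2440.0 in ZFXwt cells at 0 h (0.58 ± 0.10, adjusted p = 0.000841, limma). Ccr7, which guides B cells to the border of the T cell zone, rose less in ZFXcko cells (-0.50). Rgs13, which dampens chemokine receptor signals, had 418 and 403 in ZFXcko cells at 2 h and 273 and 278 at 0 h, against 38.9 and 63.6 in ZFXwt cells at 2 h and 106 and 155 at 0 h (1.68). Rgs13 fell in ZFXwt cells and was higher in ZFXcko cells at both times. Rgs2, of the same family, had 0.70 and 0.26, not called, by the mean over probe sets. Interferon-stimulated genes had 0 of 18 called positive and 3 negative, or 16.7% in either direction against 20.4% of all genes. Among those called negative were Rtp4 (-1.27) and the antiviral gene Ifit1 (-1.56), both dim. Without replicate 2 of ZFXwt at 0 h, 1 member was called positive. The cytokine feedback gene Cish had -1.25 and lost its call without replicate 2 of ZFXwt at 0 h (-1.20) or at 2 h (-1.09) or without replicate 1 of ZFXcko at 2 h (-1.13) or at 0 h (adjusted p = 0.0709, limma).

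The markers of follicular B cells that were tested, 10 of 12, were present on every array, and 0 were called positive and 6 negative, with a median of -0.49. Their summed signal was 63562 and 68272 in ZFXcko cells at 2 h and 146360 and 150790 at 0 h, against 65279 and 63716 in ZFXwt cells at 2 h and 121350 and 127080 at 0 h. The sums overlapped at 2 h, while at 0 h both ZFXcko arrays lay higher. Cd37, a tetraspanin of B cells, had -0.46, and the surface antigen gene Cd24a -0.66. Fewer cells of a type and less RNA per cell cannot be told apart in such samples.

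Markers of myeloid cells and neutrophils had 1 of 17 tested members called positive and 6 negative, with a median of -0.55. Their summed signal was 3401 and 3724 in ZFXcko cells at 2 h and 10955 and 10942 at 0 h, against 18192 and 18267 in ZFXwt cells at 2 h and 25249 and 25765 at 0 h. ZFXcko cells were thus lower at both times, and their sum changed by a larger factor. Of the defining markers, the neutrophil granule gene Ngp had 444 and 526 in ZFXcko cells at 2 h and 1348 and 1496 at 0 h, against 2907 and 2685 in ZFXwt cells at 2 h and 2646 and 2773 at 0 h (-1.57 ± 0.13, adjusted p = 3.82e-06, limma). The granule gene Camp rose less in ZFXcko cells (-1.10), the calprotectin gene S100a8 fell further (-1.39) and the macrophage receptor gene Csf1r fell further (-1.68). The 1 marker called positive was the granule protease gene Prtn3, with 72.3 and 82.2 in ZFXcko cells at 2 h and 73.4 and 47.1 at 0 h, against 75.4 and 61.9 in ZFXwt cells at 2 h and 237.8 and 247.8 at 0 h (1.93 ± 0.35, adjusted p = 0.00184, limma). Prtn3 fell in ZFXwt cells and was lower in ZFXcko cells at 0 h, and with the filter at the 60th percentile 0 of these markers were called positive. Mpo (1.11) and Elane (0.54) were not called, and Mpo was under a signal of 16 in ZFXwt cells at 2 h. The part of these cells in other response differences was not tested. Of the T and NK cell markers 1 of 12 was called positive and 0 negative, with sums between 1609 and 3996, and Cd3e and Cd8b1 were under 16 at 2 h in both genotypes. For erythroid cells and platelets these were 1 of 9 and 0, with sums between 492 and 2454. With each array left out in turn, 1 or 2 of the first and 0 or 1 of the second were called positive, and at most 1 of either negative.

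**Figure D5:**
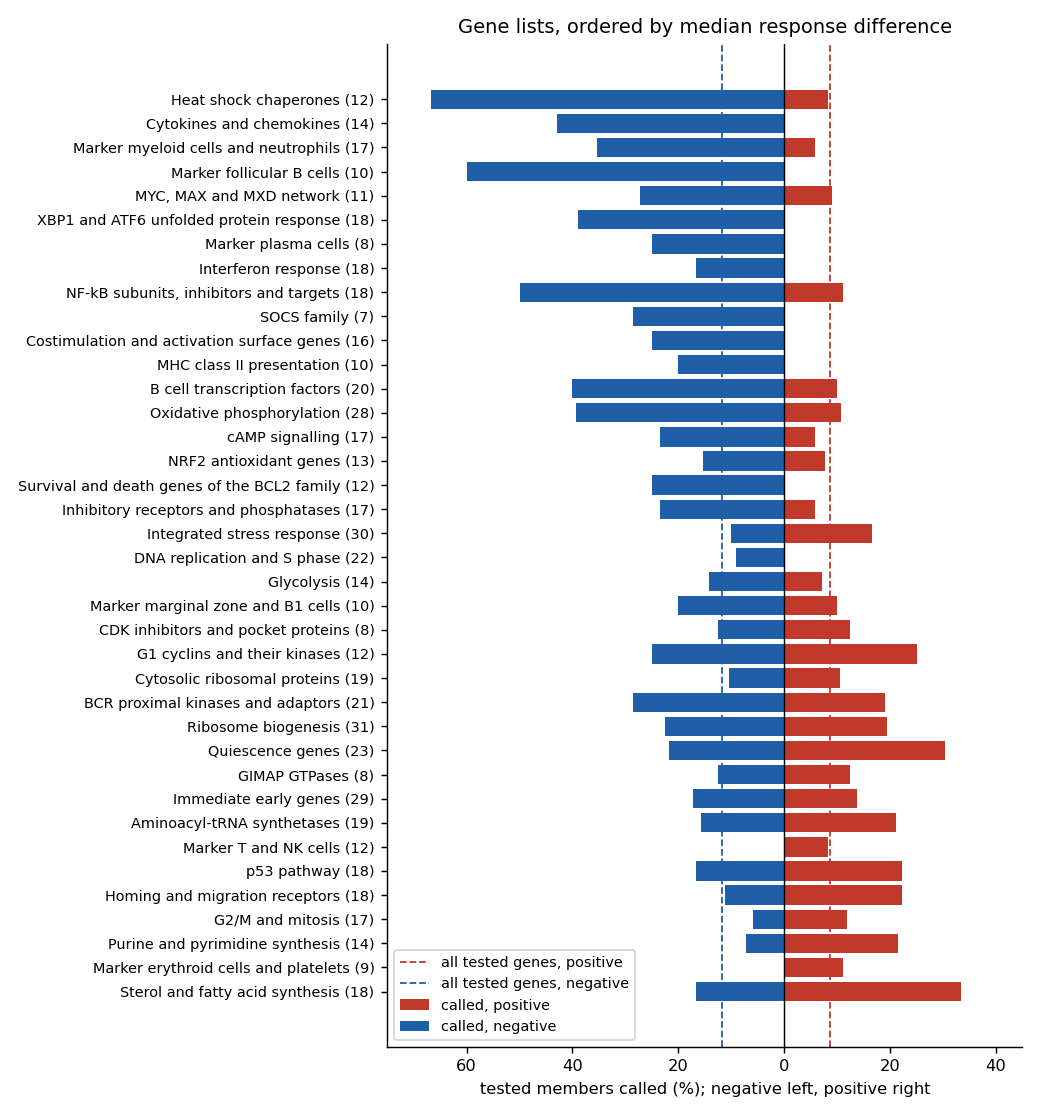
Share of tested members called in the response difference (horizontal, %) for the gene groups with at least 5 tested members, negative calls to the left and positive ones to the right, with dashed lines at the shares over all tested genes, 11.8% and 8.59%. Heat shock chaperones, grouped with Hsf2 (8 of 12 called negative), and markers of follicular B cells (6 of 10) have the longest bars to the left. Sterol and fatty acid synthesis genes (6 of 18 called positive) have the longest to the right.

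The groups not described above gave calls in both directions or few calls. Genes of the p53 pathway had 4 of 18 called positive and 3 negative, but between 1 and 3 positive with each array left out in turn and 0 with the spread not modelled on signal. Genes of MHC class II presentation had 0 of 10 called positive and 2 negative, with 1 to 4 negative when an array was left out. Under quantile normalization 2 were positive and 1 negative, and by the mean over probe sets 1 and 3. Under median scaling 0 were negative. Costimulation and activation surface genes had 0 of 16 and 4, the negative calls being 1 with the spread not modelled on signal. Genes of G2/M and mitosis had 2 of 17 and 1, with 0 to 3 positive when an array was left out. In cytosolic ribosomal proteins 2 of 19 were called positive and 2 negative, with a median of 0.00, and under quantile normalization 7 and 0. Over all genes the shares were 8.59% positive and 11.8% negative.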

How the data were processed

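The authors deposited 1 signal intensity per probe set and array, made with GCOS 1.4 per the submitters' processing notes. The values are linear, and their mean without the top and bottom 2% was 250 on every array. The summarisation algorithm is not stated there. The scale of all tests is log2(signal + 16), without further scaling of the arrays. Of 45101 probe sets, 34945 had 1 gene symbol in the platform annotation (99.4% matched to RefSeq), 9160 had none, 932 had several and 64 were controls. A probe set was kept when its mean on that scale over all 12 arrays exceeded 5.14, the 40th percentile. Each gene was represented by its brightest remaining probe set by the same mean.

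The 12190 genes were fitted with limma 3.58.1 in R 4.3.3 on all 12 arrays, with 1 mean for each of 6 groups. The fit used eBayes with an intensity trend (6 residual and 7.3 prior degrees of freedom), two-sided tests and Benjamini-Hochberg adjustment over all genes. In a simulation, response differences of 0.5, 1, -1 and 2 were each given to 50 genes. Of these, 20%, 42%, 38% and 72% were called, with 4 false calls. Many simulated differences of 2-fold were thus missed. Only these genes differed in the simulation, far fewer than the 2491 called in the data. The adjustment depends on that number, so the shares do not carry over to the data. A gene without a call may still differ. Only called genes are said to rise, fall or be higher or lower, and errors are SE of the fit. Array values are given as pairs, replicate 1 before replicate 2. Duplicate arrays correlated at 0.983 to 0.989, and in the groups at 0 h and 2 h no probe set had the same value on both duplicates. Same-numbered arrays of different groups did not deviate together (correlations of -0.01 to 0.01), so replicate numbers do not pair arrays.

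Named genes are the 12 largest called differences in each direction whose responses do not overlap between the genotypes, the 4 members of each gene list with the smallest p, and a fixed set of early activation, survival and stress genes. Predicted genes and immunoglobulin segments are not named, and some list members with small changes were dropped for length. Dusp2, Hspd1, Prtn3, Mpo and Elane were named after their values were seen. The gene lists (39, with 702 entries, 621 of them tested) share genes. The members and lists were chosen with earlier results of these data known. Alternatives changed the scaling, the pseudocount, the filter, the choice of probe set, the variance model, the size of change required and the arrays left out.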

Additional observations from a re-analysis of the deposited data

Results flagged for a closer look

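A difference between the genotypes in the 2 h response, by the interaction test itself, was found for 2491 of 12190 genes (20.4%). Of these, 141 had called responses in opposite directions in the 2 genotypes, 46 rising in ZFXcko cells and falling in ZFXwt cells and 95 the other way. The named genes among the 46 were Esrp2 (response difference 2.94), Cd302 (2.90), Ccdc39 (2.68), Myo1h (2.54), Ackr4 (2.32), Hacd1 (2.24), Pik3ip1 (1.36) and Cdk6 (0.71). Those among the 95 were Atic (-2.68), Syt6 (-2.40), Hspa1a (-2.15), Il6 (-1.84), Mnt (-1.26), Ndufc1 (-1.25), Srebf2 (-1.22), Ndufa5 (-1.14), Xbp1 (-1.03), Nfkbie (-0.96), Ndufa1 (-0.76) and Hars (-0.71). Of these, Il6 was dim on every array of the contrast. The second brightest probe sets of Ndufa5 and Hars gave 0.261 and 0.265, neither called. Those of Atic, Ndufc1, Srebf2, Xbp1 and Nfkbie were negative.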

How the results depend on the processing

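The direction was the same and the side of the threshold kept in 2297 of the values for 116 named genes under the alternatives, 103 lost the call, 7 gained it and 16 changed sign. Of the 107 called, 82 kept the call under every alternative except a 2-fold minimum. The 2491 calls of the response difference (1047 positive, 1444 negative) ranged from 1837 to 2075 with each array left out in turn (725 to 880 positive, 1112 to 1195 negative). With the mean over a gene's probe sets 1594 were called (842 negative). With every probe set tested 1691 were called positive, and the responses had 13273 calls in ZFXcko cells and 12452 in ZFXwt cells, with 6012 for the genotypes at 0 h. With a 2-fold minimum there were 599 calls (243 and 356), with 4274 and 3724 in the responses of ZFXcko and ZFXwt cells and 508 at 2 h and 684 at 0 h between the genotypes.

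Responses larger in ZFXcko cells (1086) numbered 633 by the mean over probe sets, 691 without an intensity trend and 180 at 2-fold, and 767 to 897 with an array left out. Smaller ones (417) numbered 249, 282 and 54, and 276 to 334. The alternatives on larger and smaller responses and on the gene groups were chosen after seeing the data. Genes differing mostly at 0 h (948) were 571 by the mean and 214 at 2-fold, those mostly at 2 h (765) were 153 at 2-fold, and those at both (778) were 505 by the mean, 232 at 2-fold, 439 at a ratio of 1.5 and 1218 at a ratio of 3. With a replicate block 2465 genes were called (1040 positive, 1425 negative), and of the reported counts only the DNA replication genes called positive moved by over 1.5 times (1, against 0 without the block). Positive calls were 42% of all, 56.4% under median scaling and 43.2% under quantile normalization.

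Signs changed by the mean over probe sets in Atf4 (-0.15), Hmgcs1 (0.32), Mcl1 (0.03) and Trib3 (0.82), and in Mcl1 under quantile normalization (0.02). Trib3 was also 0.39 with a pseudocount of 64. With each array left out in turn Trib3 ranged from -0.89 to 0.52 and Bcl2l1 from -0.08 to 0.36, neither called. On the linear signal scale the sign changed in Bcl2l1 (-73.4), Ccne1 (64.6), Ddit3 (256.1), Mthfd2 (2171.5), Myc (854.8), S100a8 (1374.9) and Trib3 (963.2), and in 61 of the 2491 called genes. The cause was not tested. Of the called genes, 187 had a mean signal under 100, where small signals limit the precision.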
